A study of Arabidopsis thaliana with 6 samples.

Results

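Tau-class glutathione S-transferases (GSTU) are the largest, plant-specific class of the enzymes that join glutathione to reactive or foreign compounds. The genes described here are those whose symbol is GSTU followed by digits and which have a probe set naming 1 gene. There were 11 of them, GSTU15, GSTU16, GSTU18, GSTU20 to GSTU23 and GSTU25 to GSTU28, each with 1 probe set, among 22746 tested probe sets of which 13513 name 1 gene. The RefSeq gene table holds 27 genes with such a symbol, and the other 16 are not analysed here.

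Expression was measured on 6 Affymetrix ATH1 arrays, which read transcripts with sets of short probes, in whole Arabidopsis thaliana seedlings of the Col-0 accession. All seedlings grew on half-strength MS medium to an age of 7 days, with 2 biological replicates per group. The light group grew under 16 h of light and 8 h of dark a day, the H2O2 group grew in the dark with 5 mM hydrogen peroxide, and the dark group grew in the dark without it. The labels do not say when or for how long the H2O2 was given, and the series text states that darkness served to lower the seedlings' own H2O2.

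In cells, a tau-class enzyme activates the thiol of glutathione so that it attacks an electrophile, and the conjugate is then pumped into the vacuole. Some members also reduce organic hydroperoxides, and glutathione reductases return the oxidised glutathione to its reduced form. Several genes of the class are known to respond to herbicides, oxylipins and oxidative stress, many of them through TGA transcription factors, while others have been linked to light signalling. GSTU20, also known as FIP1, binds FIN219 (JAR1), an enzyme that activates jasmonate and acts in far-red light signalling. GSTU25 is known to conjugate the explosive TNT.

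Values are log2 expression, so a difference of 1 is a 2-fold change. Replicate arrays correlated at 0.993 to 0.995 over all tested probe sets, pairs of a light and a dark array at 0.898 to 0.901, and pairs of an H2O2 and a dark array at 0.974 to 0.979. The number of arrays, and not a read depth, limits the precision: the median standard error (SE) of a difference was 0.15. Group means below 5.16 are termed dim here, since 40% of probe sets average less than that over all arrays. GSTU15, GSTU21 and GSTU23 were dim in all 3 groups and the other 8 genes in none, so the sizes given for GSTU21 and GSTU23 are uncertain. The bacterial hybridisation controls, added during processing, had a median log2 signal of 9.11 ± 0.61 in light, 9.02 ± 0.088 with H2O2 and 9.80 ± 0.47 in the dark (SD, n = 2 each). Centring every array on them moved the median of all probe sets by 0.69 for light minus dark, 0.78 for H2O2 minus dark and -0.089 for light minus H2O2. Probe sequences were not used here, so cross-hybridisation between genes of the class was not tested.

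Between light-grown and dark-grown seedlings, most measured tau-class genes differed, and they went both ways. GSTU20, GSTU18, GSTU16, GSTU27 and GSTU23 were higher in light, and GSTU22, GSTU25, GSTU21 and GSTU26 were lower. In limma's moderated test with Benjamini-Hochberg adjustment over all tested probe sets, called at an adjusted p under 0.05, 5 of 11 were higher and 4 were lower. That is 81.8% of these 11 genes, against 48.0% of all tested probe sets (23.0% higher and 25.0% lower). The light and dark arrays of 9 members did not overlap, at a background of 72.7% of all probe sets. Their median absolute log2 difference was 1.07, against 0.40 over all probe sets, while their median signed difference was 0.048, against -0.064 over all.

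**Figure D1:**
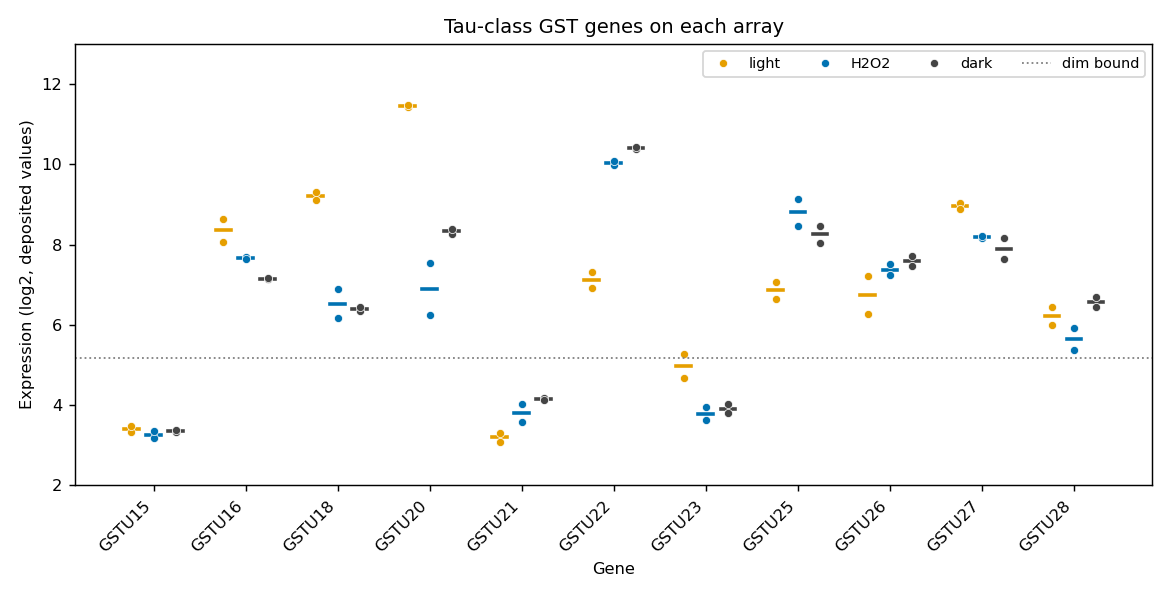
Deposited log2 expression (y axis) of the 11 tau-class genes (x axis) in light, H2O2 and dark; points are the 2 arrays of a group, short bars their mean, and the dotted line the dim bound of 5.16. In light GSTU18 and GSTU20 lie far above their own dark points, and GSTU22 lies far below its own. GSTU15, GSTU21 and GSTU23 have all 3 group means under the bound.

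GSTU20 had the largest rise of the 11 genes in light. Its log2 signal was 11.44 and 11.48 in light, against 8.26 and 8.39 in the dark. The groups did not overlap, and the difference was 3.13 ± 0.34 (SE, n = 2 arrays per group), an 8.78-fold higher level (limma adjusted p = 5.67e-05). GSTU18 followed, with 9.10 and 9.31 in light, against 6.33 and 6.44 in the dark. That is a difference of 2.82 ± 0.22 (limma adjusted p = 7.25e-06). Both light arrays of each gene lay close together and more than 2 log2 units above every dark array.

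The other 3 genes higher in light rose by about 1 log2 unit each. GSTU16 had 8.64 and 8.06 in light, against 7.14 and 7.15 in the dark, a difference of 1.20 ± 0.19. For GSTU27 the levels were 9.04 and 8.90 in light, against 8.15 and 7.64 in the dark, with a difference of 1.07 ± 0.18. The dim GSTU23 read 5.26 and 4.68 in light, against 3.79 and 4.03 in the dark, a difference of 1.06 ± 0.21. None of these groups overlapped, and the adjusted p-values by limma were 0.000554, 0.000855 and 0.00233.

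GSTU22 had the largest fall of the 11 genes in light. It read 7.32 and 6.92 in light, against 10.38 and 10.42 in the dark. The difference of -3.28 ± 0.16 is a 9.68-fold lower level in light (limma adjusted p = 5.65e-07), and the groups were far apart. GSTU25 had 7.07 and 6.64 in light, against 8.46 and 8.04 in the dark, a difference of -1.39 ± 0.25 (limma adjusted p = 0.00123). GSTU21, dim throughout, had 3.08 and 3.31 in light, against 4.17 and 4.12 in the dark, a difference of -0.95 ± 0.17 (limma adjusted p = 0.00154). The groups of these genes did not overlap either.

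GSTU26 had 7.21 and 6.26 in light, against 7.71 and 7.46 in the dark. Its groups lay next to each other without overlap, with a difference of -0.85 ± 0.27 (limma adjusted p = 0.0275), and the call was the least stable of the 9. It ended without light replicate 2 (a difference of -0.38) and without dark replicate 1 (-0.73) or 2 (-0.98). It also ended with the light and dark arrays fitted alone (limma adjusted p = 0.051), and leaving out either H2O2 replicate gave that same fit. Without light replicate 1 the difference was -1.32. When arrays were centred on those hybridisation controls, GSTU22 was still lower in light at -2.59, while GSTU25, GSTU21 and GSTU26 were no longer called, at -0.71, -0.26 and -0.16, so the split was 5 higher and 1 lower.

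GSTU15 and GSTU28 were not called between light and dark. GSTU28 had 6.45 and 5.99 in light, against 6.70 and 6.43 in the dark, and these groups overlapped. Its difference of -0.34 had a 95% interval of -0.84 to 0.16 (limma adjusted p = 0.245) and became 0.35 with centring on the hybridisation controls. GSTU15 read 3.31 and 3.47 in light, against 3.32 and 3.36 in the dark, with a 95% interval of -0.26 to 0.36 for the difference. It was the single member of the 11 called in no comparison.

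**Figure D2:**
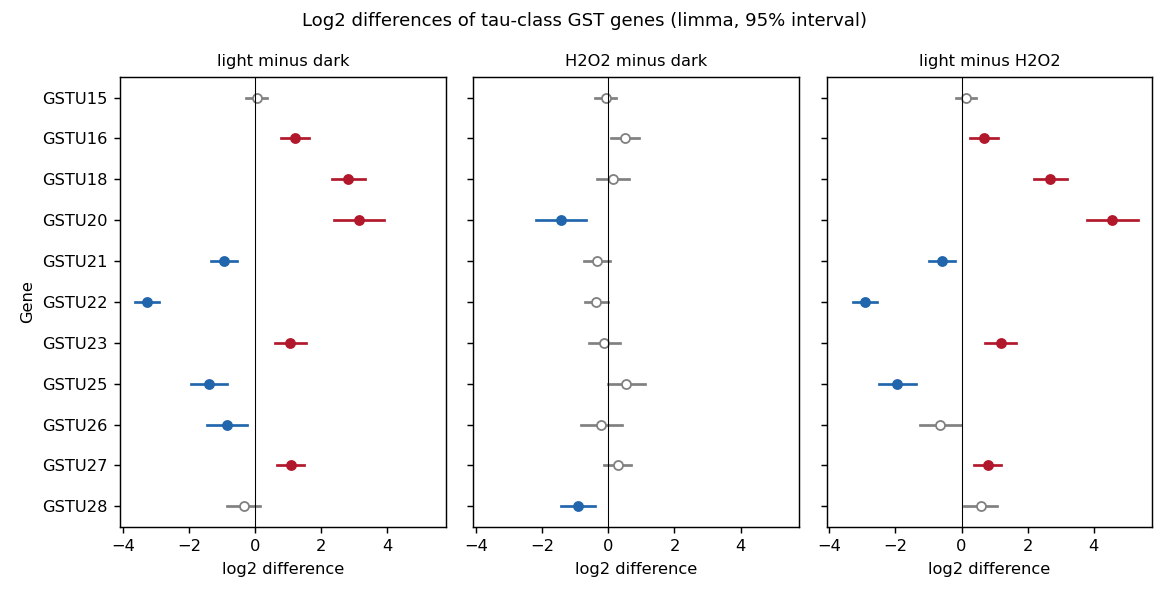
Log2 difference (x axis) of each tau-class gene (y axis) in light minus dark, H2O2 minus dark and light minus H2O2; points are limma estimates, lines 95% intervals, red is called higher, blue called lower and open grey not called. Light minus dark has 5 genes called higher and 4 called lower, and H2O2 minus dark has GSTU20 and GSTU28 called lower; with centring on the hybridisation controls neither of those 2 is called, and GSTU15, GSTU21, GSTU22, GSTU23 and GSTU26, not called here, turn to the right of 0.

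Added H2O2 in the dark was followed by lower levels of GSTU20 and GSTU28, and none of the 11 tau-class genes analysed was called higher. With H2O2, 2 of 11 genes were lower and none was higher by limma, or 18.2% of them. Over all tested probe sets 20.5% were called, 12.3% higher and 8.18% lower, so the share of called members was near the background. At an unadjusted limma p under 0.05, GSTU16 was also higher, at a difference of 0.52, and GSTU22 lower, at -0.36. Neither was called after adjustment (limma adjusted p = 0.0838 and 0.146). How many of all probe sets passed that looser bound was not counted, so no background is given for these genes. Once arrays were centred by the hybridisation control probe sets, GSTU16 stood at 1.29, while GSTU22 changed sign and stood at 0.42. The median absolute difference of the 11 genes was 0.34, against 0.23 over all probe sets.

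GSTU20 read 7.55 and 6.24 with H2O2, against 8.26 and 8.39 in the dark. Both H2O2 arrays lay below both dark arrays, but the H2O2 replicates were 1.31 log2 units apart, the widest gap between replicates of any member. The difference was -1.43 ± 0.34, with a 95% interval of -2.19 to -0.67, or a 2.69-fold lower level (limma adjusted p = 0.0176). Its size rested on which H2O2 array was used: -2.08 without H2O2 replicate 1 and -0.78 without H2O2 replicate 2. The call ended when dark replicate 1 was left out (-1.49, adjusted p = 0.0594), when dark replicate 2 was (-1.37, adjusted p = 0.0916), and with centring on the hybridisation controls (-0.65, adjusted p = 0.283).

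GSTU28 read 5.37 and 5.93 with H2O2, against 6.70 and 6.43 in the dark, with no overlap. The difference was -0.92 ± 0.22, a 1.89-fold lower level (limma adjusted p = 0.0199). The call ended without dark replicate 1 (-0.78, adjusted p = 0.103), dark replicate 2 (-1.05, 0.0516) or H2O2 replicate 1 (-0.64, 0.143). It also ended with centring on the hybridisation controls (-0.14, adjusted p = 0.802).

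The other 9 genes were not called with H2O2, and their intervals take the deposited normalization as given. With centring on the hybridisation controls GSTU25, GSTU16, GSTU27 and GSTU18 had differences of 1.33, 1.29, 1.07 and 0.92. Each lay above the upper end of the gene's interval, though none was called. GSTU25 had 9.13 and 8.47 with H2O2, against 8.46 and 8.04 in the dark, a difference of 0.55 with a 95% interval of -0.0074 to 1.11 (limma adjusted p = 0.155). GSTU16 had 7.68 and 7.65 with H2O2, against 7.14 and 7.15 in the dark, a difference of 0.52 with an interval of 0.095 to 0.94 (limma adjusted p = 0.0838). The groups did not overlap for either gene. GSTU16 was called when the H2O2 and dark arrays were fitted alone (limma adjusted p = 0.0240), where the spread of the light arrays no longer entered. Leaving out light replicate 1 or 2 gave the same fit of this comparison, since a lone light array adds no spread.

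GSTU22 had 9.99 and 10.09 with H2O2, against 10.38 and 10.42 in the dark, a difference of -0.36 with a 95% interval of -0.72 to -0.0039. GSTU18 had 6.88 and 6.17 with H2O2, against 6.33 and 6.44 in the dark, and its interval of -0.35 to 0.63 covered 0. Both were among the 3 members with the largest light effects, and neither interval with H2O2 reached the size of the gene's light effect. The remaining 5 genes, GSTU15, GSTU21, GSTU23, GSTU26 and GSTU27, had differences between -0.34 and 0.29. In all, the H2O2 and dark arrays of 6 members did not overlap, at a background of 61.1% of all probe sets.

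The comparison of light with H2O2 tests directly whether a gene stood differently in the 2 conditions that were each set against the same dark arrays. Of the 11 genes, 5 were higher in light and 3 were lower, 72.7% of them against 39.5% of all tested probe sets (17.4% higher and 22.0% lower). The called members were the same 8 genes, with the same directions, as in light against dark, without GSTU26. Both comparisons use the same light arrays, so the second is no independent check of the first. The arrays of 10 members did not overlap, at a background of 67.7%.

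GSTU20 had the widest gap, 4.56 ± 0.34 higher in light than with H2O2, or 23.7-fold (limma adjusted p = 7.94e-06). The H2O2 arrays moved this size, to 5.22 without H2O2 replicate 1 and 3.91 without H2O2 replicate 2. It was also the single member called both with H2O2 and in light, in opposite directions. GSTU18 was 2.68 ± 0.22 higher in light than with H2O2, and GSTU23 was 1.18 ± 0.21 higher. The smaller rises were 0.79 ± 0.18 for GSTU27 and 0.69 ± 0.19 for GSTU16, with adjusted p-values by limma of 0.00648 and 0.0157.

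GSTU22 was lower in light than with H2O2, with a log2 difference of -2.91 ± 0.16 (limma adjusted p = 1.51e-06). GSTU25 had -1.94 ± 0.25 and GSTU21 had -0.60 ± 0.17. GSTU16 was not called without H2O2 replicate 1 (0.70, adjusted p = 0.0728), H2O2 replicate 2 (0.67, 0.0874) or light replicate 1 (0.40, 0.0877), nor GSTU21 without H2O2 replicate 2 (-0.38, 0.162) or light replicate 1 (-0.49, 0.113). Centring on the hybridisation controls ended the calls of GSTU16, GSTU21, GSTU23 and GSTU27, at 0.60, -0.69, 1.09 and 0.70.

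GSTU26 and GSTU28 were not called between light and H2O2. GSTU26 read 7.21 and 6.26 in light, against 7.51 and 7.24 with H2O2, a difference of -0.64 with a 95% interval of -1.25 to -0.024, and it was called without light replicate 1 (-1.11, limma adjusted p = 0.00238). GSTU28 had 6.45 and 5.99 in light, against 5.37 and 5.93 with H2O2, a difference of 0.58 with an interval of 0.073 to 1.08. It was called without H2O2 replicate 2 (0.86, adjusted p = 0.0325) or light replicate 2 (0.81, 0.0349).

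Ordered by group mean, the genes fell into a few patterns. GSTU20 ran light over dark over H2O2, and each neighbour in that order was called apart. GSTU16, GSTU18 and GSTU27 ran light, H2O2, dark from high to low, with H2O2 and dark not called apart in any of them. GSTU23 ran light, dark, H2O2, again with its lower pair not called apart. GSTU21, GSTU22 and GSTU26 ran dark, H2O2, light, with dark and H2O2 not called apart, and in GSTU26 H2O2 and light were not either. GSTU25 ran H2O2, dark, light, with H2O2 and dark not called apart, and GSTU28 ran dark, light, H2O2 with a call between dark and H2O2 alone. GSTU15, with group means of 3.39 in light, 3.26 with H2O2 and 3.34 in the dark, had no order beyond its spread.

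Set against each other over the 6 arrays, after each gene's own mean was taken away, the closest of the 55 pairs of members were GSTU16 and GSTU27, at a root mean square distance of 0.22 log2 units. GSTU20 and GSTU22 were the farthest apart, at 3.33. These are descriptions of 6 arrays that the genes share, not tests.

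Some tau-class genes lie in tandem runs, and the longest measured run held genes that were higher and genes that were lower in light. Of the 11 genes, 10 lie on chromosome 1 and GSTU27 lies on chromosome 3, by the RefSeq table. GSTU23, GSTU22, GSTU21 and GSTU20 follow one another in that order, with AT1G78330 between GSTU23 and GSTU22, AT1G78350 and AT1G78355 between GSTU22 and GSTU21, and no gene between GSTU21 and GSTU20. Within this run GSTU23 was higher in light against dark at 1.06, GSTU22 lower at -3.28, GSTU21 lower at -0.95 and GSTU20 higher at 3.13, so the directions along the run were up, down, down and up. The fall of GSTU21 was not called with centring on the hybridisation controls, as given above.

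**Figure D3:**
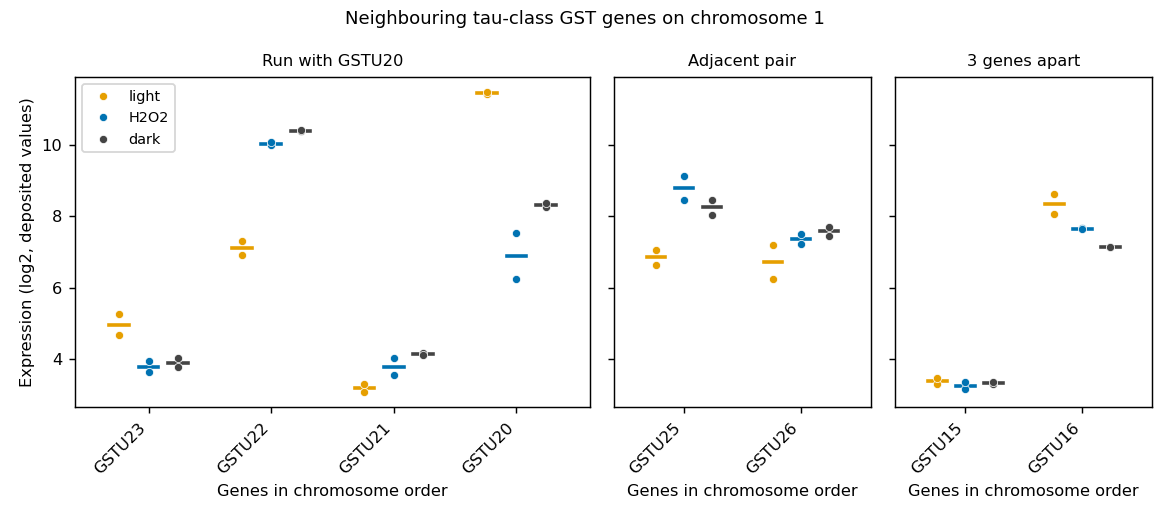
Deposited log2 expression (y axis) of tau-class genes in their order on chromosome 1 (x axis), in the run from GSTU23 to GSTU20, the adjacent pair GSTU25 and GSTU26, and GSTU15 and GSTU16; points are arrays and bars group means. In the first panel the light points lie above the dark ones for GSTU23 and GSTU20 and below them for GSTU22 and GSTU21.

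GSTU25 and GSTU26 are adjacent with no gene between them, and both were lower in light against dark, at -1.39 and -0.85. With H2O2 against dark their differences were 0.55 and -0.21, neither called. GSTU15 and GSTU16 have 3 genes between them, and GSTU15 stayed under the dim bound in every group while GSTU16 was 1.20 higher in light. Of the genes immediately beside these members, few outside the class had a single-gene probe set in the annotation used here. AT1G59660, next to GSTU15, had differences of 0.17 ± 0.15 in light and 0.32 ± 0.15 with H2O2, each against dark, and neither was called. AT1G59710, next to GSTU16, was lower in light against dark at -0.97 ± 0.13 (limma adjusted p = 0.000184), opposite to GSTU16, and AT1G10350, next to GSTU18, had a difference of 0.095 ± 0.15 and was not called (adjusted p = 0.642).

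For each member, the genes with the most similar pattern were taken as those with the smallest root mean square distance over the 6 arrays, among 13354 genes. Closest to GSTU20 were BHLH101, a transcription factor gene of the iron deficiency response, at 0.41, AT5G40500 at 0.43 and AT5G38980 at 0.50. These distances were larger than those of the other members, as was its median distance to all genes, 1.98. BHLH101 had log2 differences of 2.87 in light against dark and -1.32 with H2O2 against dark, beside 3.13 and -1.43 for GSTU20. Nearest to GSTU18 were AT2G35410 at 0.092, FTSZ2-2, a plastid division gene, at 0.12 and AT3G10840 at 0.13. GSTU22 lay nearest AT1G68360 at 0.075, AT1G26665 at 0.13 and AT1G27670 at 0.13.

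The genes nearest GSTU25 included IAA29, an auxin response gene, at 0.21, with AT1G01390 at 0.19 and AT1G21830 at 0.21. GSTU28 lay nearest AT3G61930 at 0.12, which had log2 differences of -0.27 in light and -1.10 with H2O2, each against dark, then AT4G27290 at 0.15 and AT5G14150 at 0.16. GSTU21 lay nearest LSM3B, an RNA-binding protein gene, at 0.051, AT2G37820 at 0.060 and AT4G15270 at 0.064. The 3 nearest of GSTU16 (AT4G30825, AT2G02410 and AT1G53120) and of GSTU27 (AT5G41460, AT3G47590 and AT2G43180) lay at distances of 0.056 to 0.093. Those of GSTU23 (AT5G04000, AT2G21080 and AT1G78530), GSTU26 (AT3G61790, AT5G66930 and AT5G26260) and GSTU15 (AT4G28815, AT2G04720 and AT5G32430) lay at 0.034 to 0.12. With this many candidates close partners are common, most of all for genes that vary little, as GSTU15 does.

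The other lists, of glutathione chemistry, detoxification and TGA factors, held 10 measured genes in all, of which 7 were called higher with H2O2 against dark, at a background of 12.3% of all tested probe sets. Their difference from the tau class was not tested, and the lists were chosen with earlier results of these data known. Of 25 genes of other glutathione S-transferase classes, 3 were measured, that is, had a single-gene probe set in the annotation used here. GSTF4, of the phi class, read 7.41 and 7.78 with H2O2, against 6.73 and 6.67 in the dark, a rise of 0.89 ± 0.15 (limma adjusted p = 0.00461), and it was lower in light against dark at -0.95 ± 0.15, a fall that centring on the hybridisation controls ended (-0.26, adjusted p = 0.685). GSTL3, of the lambda class, rose by 0.66 ± 0.15 with H2O2 (adjusted p = 0.0158) and was 2.92 ± 0.15 higher in light. Its H2O2 call ended without dark replicate 2 or either H2O2 replicate (highest adjusted p = 0.105). ATGSTF13, also phi class and dim in all groups, was 1.36 ± 0.14 higher in light and was not called with H2O2 (-0.13, which turned to 0.65 with the same centring).

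Both measured genes of 10 for glutathione synthesis, reduction and breakdown encode glutathione reductases. GR1, the cytosolic and peroxisomal form, read 9.60 and 9.50 with H2O2, against 8.53 and 8.43 in the dark, a rise of 1.07 ± 0.13 (limma adjusted p = 0.000998), and in light it was 1.24 ± 0.13 higher than in the dark. GR, the form of plastids and mitochondria, was 1.20 ± 0.14 higher in light and was not called with H2O2 (-0.10, or 0.68 with centring on the hybridisation controls). Its rise over H2O2 in light, 1.31 ± 0.14, was not called with that centring (1.22, adjusted p = 0.0937). None of 8 glutathione peroxidase genes and none of 6 ABCC genes for conjugate transporters had a single-gene probe set in the annotation used here.

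**Figure D4:**
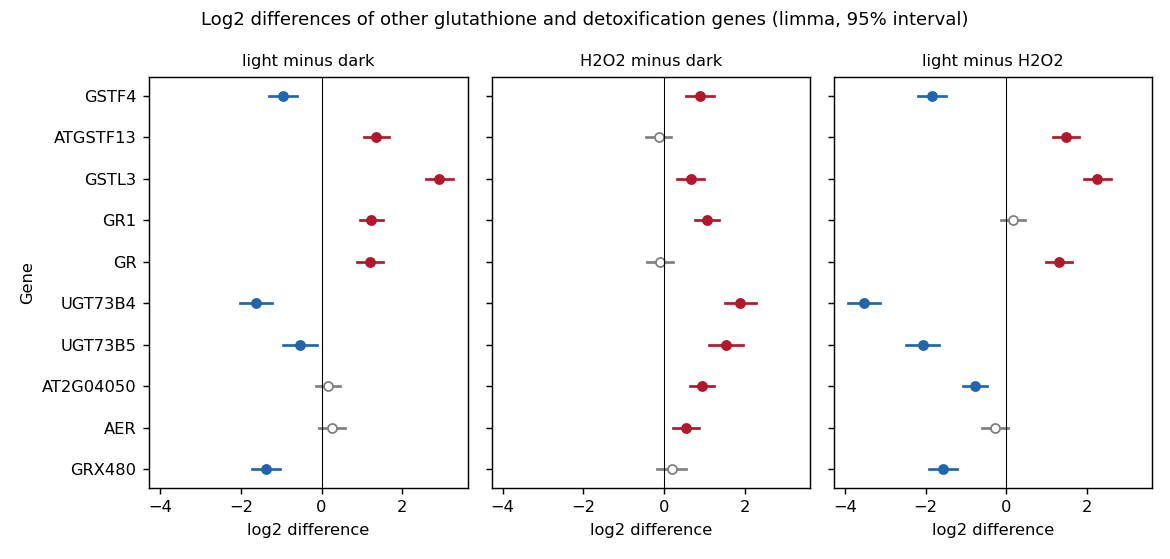
Log2 difference (x axis) of the measured genes of other glutathione S-transferase classes, glutathione reductases, xenobiotic detoxification and GRX480 (y axis) in the 3 comparisons, drawn as limma estimates with 95% intervals; filled red is called higher, filled blue called lower, open grey not called. With H2O2 against dark 7 of these 10 genes are called higher, at a background of 12.3% of all probe sets; with centring on the hybridisation controls AER is not, and ATGSTF13 and GR, open here, turn to the right of 0, as does the blue UGT73B5 in light minus dark.

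All 4 measured genes of 15 on the list for xenobiotic detoxification rose with H2O2 against dark, at a median of 1.24, where 12.3% of all tested probe sets were called higher. UGT73B4, a stress-induced glycosyltransferase gene, read 7.90 and 8.00 with H2O2, against 6.20 and 5.90 in the dark. UGT73B5, a close relative, read 7.42 and 7.29 with H2O2, against 6.08 and 5.54 in the dark. Their rises were 1.90 ± 0.17 and 1.55 ± 0.18 (limma adjusted p = 0.000334 and 0.000902). AT2G04050, on the list as a transporter gene and dim in all groups, rose by 0.94 ± 0.13, and AER, an alkenal reductase gene, by 0.55 ± 0.14 (adjusted p = 0.0256). The call of AER ended without dark replicate 1 or either H2O2 replicate (highest adjusted p = 0.140) and with centring on the hybridisation controls (1.32, adjusted p = 0.0583).

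In light, none of these 4 was called higher than in the dark. UGT73B4, dim in light, was lower at -1.63 ± 0.17, which was not called with centring on the hybridisation controls (-0.94, adjusted p = 0.164). UGT73B5 was lower at -0.53 ± 0.18 (limma adjusted p = 0.0393), but this turned to 0.16 with that centring and was not called without dark replicate 1 or any of the H2O2 and light arrays (highest adjusted p = 0.267). UGT73B4, UGT73B5 and AT2G04050 were lower in light than with H2O2, at -3.53, -2.08 and -0.78, the last not called with the centring (-0.87, adjusted p = 0.342). GRX480, a glutaredoxin that binds TGA factors and the single measured gene of 13 on its list and dim in light, was not called with H2O2 (0.19 ± 0.16) and was lower in light against dark at -1.38 ± 0.16 (-0.69 and not called with the centring).

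Tissue markers also differed between the 3 groups of seedlings. In bulk seedlings, fewer cells of a type and less RNA per cell cannot be told apart. All 10 genes of the photosynthetic shoot were measured and called higher in light than in the dark, at a background of 23.0% of all probe sets, with summed linear signals of 75922 to 78175 in light, 16210 to 18914 with H2O2 and 14625 to 15240 in the dark. Both measured guard cell genes of 6 on their list, FMA (dim with H2O2 and in the dark) and AT1G22690, were also higher in light than in the dark, by 1.99 and 5.21, with sums of 2256 to 2551 in light, 48.6 to 67.4 with H2O2 and 67.3 to 83.9 in the dark. With H2O2 against dark FMA and AT1G22690 went opposite ways, at 0.51 (not called) and -0.65 (called lower, but 0.13 with centring on the hybridisation controls). In light the shoot and guard cell genes moved as the 5 higher tau-class genes did and opposite to the 4 lower ones. Their part in those differences was not tested.

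The 3 measured root genes of 7, EXPA7 and EXPA18, expansins of root hairs, and AT4G26010, a class III peroxidase, moved in the order that GSTU20 did. Their summed signal was 548 to 798 in light, 92.4 to 97.9 with H2O2 and 237 to 340 in the dark. Each fell with H2O2 against dark, with log2 differences of -1.46 ± 0.19, -1.46 ± 0.24 and -1.64 ± 0.23, where 8.18% of all probe sets were called lower, and each was higher in light than in the dark. The light call of EXPA18 (0.88) ended without dark replicate 2 or light replicate 1 (highest adjusted p = 0.0995). EXPA7 and EXPA18 were dim with H2O2. The falls were not called with centring on the hybridisation controls (-0.68, -0.68 and -0.87). Their part in the fall of GSTU20 and GSTU28 with H2O2 was not tested.

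Of 9 genes of seed storage and oil bodies 3 were measured, and OLEO3, PAP85 and AT2G28490 rose with H2O2 against dark by 0.54 ± 0.14, 2.76 ± 0.41 and 2.42 ± 0.28, at the background of 12.3%. The rise of PAP85 was 1.97 without H2O2 replicate 1 and 3.54 without H2O2 replicate 2. Their sum was 43.0 to 59.7 in light, 307 to 411 with H2O2 and 146 to 168 in the dark. PAP85 and AT2G28490 were dim in light and in the dark, and OLEO3 was dim in light, where it was lower than in the dark at -2.60 ± 0.14. The H2O2 call of OLEO3 ended without dark replicate 1 or either H2O2 replicate (highest adjusted p = 0.150), and with centring on the hybridisation controls (1.32, adjusted p = 0.0594). None of the 11 tau-class genes analysed was called higher with H2O2 in the main model, though the differences of GSTU25 (0.55) and GSTU16 (0.52) were near that of OLEO3.

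**Figure D5:**
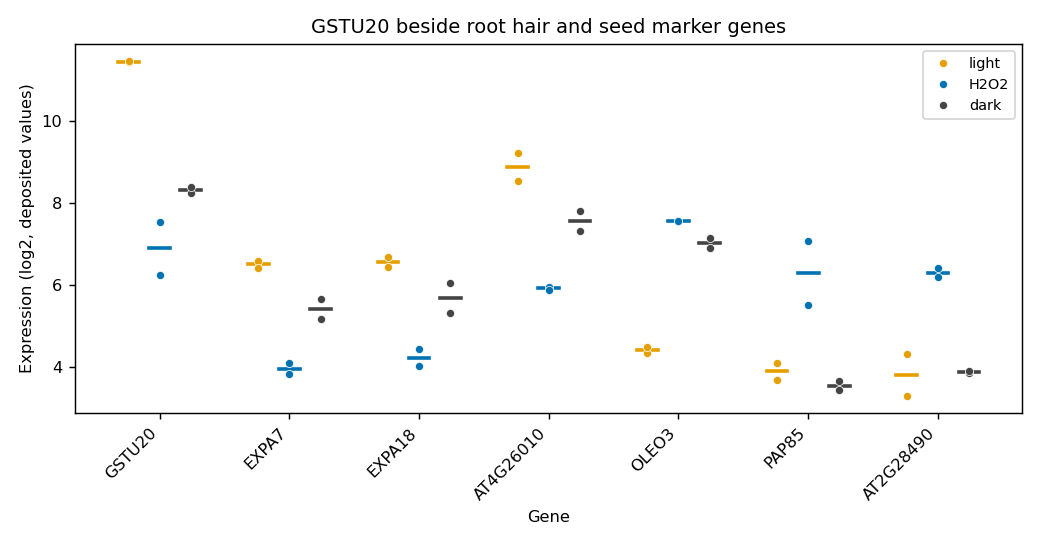
Deposited log2 expression (y axis) of GSTU20 beside the measured root genes (EXPA7, EXPA18, AT4G26010) and seed storage and oil body genes (OLEO3, PAP85, AT2G28490) (x axis); points are arrays and bars group means. GSTU20 and the 3 root genes run light, dark, H2O2 from high to low, while the 3 seed genes are highest with H2O2.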

How the data were processed

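RNA of 6 seedling samples was read on 1-colour, biotin-labelled ATH1 arrays, per the labels. The deposited table covers 22810 probe sets. Its values are taken as log2, from their range of 2.22 to 14.23 and from RMA, which the submitters' processing notes name beside limma. No source used here gives the versions, chip definition or settings behind the authors' log2 values.

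Groups and replicate numbers came from the sample titles. The 64 control probe sets were set aside and 22746 entered the test, dim ones included. Names came from the platform annotation, updated by gene identifier through the RefSeq table of assembly TAIR10.1. Probe sets naming several genes (503) or none (8730) stay unnamed. A gene counts as measured where a probe set is named for it alone, so other genes may still have probes on the array. No coordinates are given, since no source names a build for the arrays. All 11 tau-class symbols analysed are read from single-gene probe sets.

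All 6 arrays entered 1 model in limma 3.58.1 (R 4.3.3; lmFit, then eBayes; 3 residual and 5.84 prior degrees of freedom). Tests were 2-sided, with Benjamini-Hochberg adjustment within each contrast and intervals at 95%. The steps were tested on simulated data. Alternatives were a replicate block, a fit of 2 groups, centring on 18 hybridisation controls, quantile normalization, a dim filter, an intensity trend and leaving out each array. Without 1 array, the lone array of a group is assumed to vary like the others.

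Each of the 11 tau-class genes analysed is named. Of each list, called genes were named up to 3 per comparison, or 2 as values where none was called, and of the likeness search the 3 nearest. The members, lists and rules were chosen with earlier results of these data known. Over all tested probe sets, same-numbered arrays of different groups did not deviate together (correlations of -0.0019, 0.069 and -0.032), and the main model did not pair them. These correlations cannot exclude a shared replicate effect in part of the genes. A replicate block lowered the SE of light minus dark from 0.25 to 0.14 for GSTU25 and from 0.27 to 0.19 for GSTU26.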

Additional observations from a re-analysis of the deposited data

How the results depend on the processing

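For light against dark, the count of 5 higher tau-class genes was 5 under every alternative run but the dim filter, which left 4 by setting GSTU23 aside. The lower count was 4, or 1 with centring on the hybridisation controls, 3 with 2 groups fitted alone, 3 with the dim filter and 3 to 4 without 1 array. With H2O2 against dark no gene was called higher here; 1 was with a replicate block (GSTU25, adjusted p = 0.0279) and 1 when 2 groups were fitted alone (GSTU16), and 0 to 1 without 1 array. The 2 lower calls became 0 with that centring and 0 to 2 without 1 array. For light against H2O2 the 5 higher genes became 2 with the centring, 4 with the dim filter and 4 to 6 without 1 array, and the 3 lower ones became 2 with the centring, 2 with the dim filter, 4 with a replicate block and 2 to 3 without 1 array. The replicate block also called GSTU26 there (adjusted p = 0.0293) and changed no other call of a member.

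The tau-class values that changed sign had not been called. With the centring, GSTU15, GSTU21, GSTU22, GSTU23 and GSTU26 had 0.70, 0.43, 0.42, 0.66 and 0.57 with H2O2 against dark, and GSTU28 had 0.35 in light against dark. With 1 array left out at a time, GSTU15 ranged from -0.17 to 0.014, GSTU18 from -0.22 to 0.49 and GSTU23 from -0.28 to 0.035 with H2O2 against dark, each changing sign without H2O2 replicate 1. GSTU15 ranged from -0.029 to 0.12 in light against dark and changed sign without light replicate 2. The cause was not tested. The centring adds the spread of the controls to every probe set and widens each SE to 0.49. Over all probe sets it left 2379 calls with H2O2 against dark, 98.9% higher, where 4656 with 60.0% higher were called, 5261 in light against dark (88.2% higher, against 10920 with 48.0% higher) and 2576 in light against H2O2 (54.4% higher, against 8981 with 44.2% higher). The H2O2 calls over all probe sets numbered 2306 without dark replicate 2, 2173 without H2O2 replicate 1 and 2135 without H2O2 replicate 2. The dim filter sets GSTU15, GSTU21 and GSTU23 aside. With 2 arrays a group, small differences of single genes were not detectable.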
